A study of Mus musculus with 2 samples.

Results

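Cycling CCR2-low macrophages are the heart macrophages that carried transcripts of cell division while reading little or no Ccr2, the chemokine receptor by which blood monocytes are recruited. They were chosen by their transcripts. A barcode had to show at least 1000 genes, at most 10% mitochondrial UMIs (unique molecular identifiers, 1 per captured transcript), at least 10 UMIs of C1qa, C1qb and C1qc per 10000 UMIs, at least 3 UMIs of Mki67 and Top2a together, fewer than 5 of Ccr2, fewer than 5 of Prg4 and fewer than 3 of Cd207 and Clec4f together. This left 264 cells in the WT library and 99 in the Lyve1 KO library, 363 of 10998 deposited barcodes. Without the Mki67 and Top2a limit, the same rule held 1160 WT and 450 KO CCR2-low macrophages.

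The data are droplet single-cell RNA-seq (10x Genomics 5′ chemistry) of live CD45+ cells sorted from the ventricles of neonatal mouse hearts. Both groups had myocardial infarction (MI) at postnatal day 2 (P2) by ligation of a coronary artery and were taken 7 days later, at 9 days of age, the stage the study calls P2MI7dpi. The WT library pooled 5 wild-type hearts, and the KO library pooled 5 hearts of mice lacking Lyve1 in every cell, so the loss also affects the lymphatic endothelium. The libraries held 67968938 UMIs in 5713 barcodes and 61555917 UMIs in 5285 barcodes. With 1 library per genotype and without the study's assignment of cells to hearts, which was not used here and would give replicates, no difference has a replicate check. Every interval below covers counting error only, at 95%, and neither the spread between hearts nor that between libraries is in it. Neither of these libraries is of uninjured hearts, so the response to MI itself was not analysed here.

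Tissue macrophages are seeded before birth and can renew themselves in place by division. A dividing cell first induces the enzymes of nucleotide synthesis and the replicative helicase (S phase), and then the cyclins, kinases and centromere proteins of G2 and mitosis. The receptors and scavenging genes of the resident programme are carried by the macrophage between divisions. In the heart, resident macrophages are known for a programme with Folr2, Timd4 and Lyve1, the last coding for a hyaluronan receptor. Genes such as Olfml3, Fcrls and Gpr34 are better known from microglia, and were followed here as a second resident set.

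Promoters of cycle genes hold short sequence words, some of which differed in frequency between S and G2/M genes. Below are the promoters (RefSeq, GRCm38.p6, 250 bases before to 20 bases after the start of the transcript, 5′ to 3′ on the strand of the gene) of both genes that chose the cells, of Cenpf and Ube2c as genes of mitosis, and of Mcm5 as a gene of replication. Capitals mark every match to TTTGAA, the core of the cell-cycle homology element, to CCAAT, the NF-Y box, and to TTCCCGC or TTGGCGC, forms of the E2F site, on either strand.
Mki67 chr7:135716360-135716629, minus strand: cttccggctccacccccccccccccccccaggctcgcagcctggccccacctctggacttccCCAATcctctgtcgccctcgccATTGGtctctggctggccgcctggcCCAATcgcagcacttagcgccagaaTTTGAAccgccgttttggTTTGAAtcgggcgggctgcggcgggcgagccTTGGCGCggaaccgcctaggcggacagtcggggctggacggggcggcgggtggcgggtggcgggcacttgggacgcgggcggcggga
Top2a chr11:99024170-99024439, minus strand: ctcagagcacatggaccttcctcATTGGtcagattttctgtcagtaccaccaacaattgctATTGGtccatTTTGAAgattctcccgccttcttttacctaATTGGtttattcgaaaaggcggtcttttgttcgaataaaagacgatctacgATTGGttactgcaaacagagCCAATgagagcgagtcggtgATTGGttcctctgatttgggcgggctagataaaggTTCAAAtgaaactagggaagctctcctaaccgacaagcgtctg
Cenpf chr1:189688067-189688336, minus strand: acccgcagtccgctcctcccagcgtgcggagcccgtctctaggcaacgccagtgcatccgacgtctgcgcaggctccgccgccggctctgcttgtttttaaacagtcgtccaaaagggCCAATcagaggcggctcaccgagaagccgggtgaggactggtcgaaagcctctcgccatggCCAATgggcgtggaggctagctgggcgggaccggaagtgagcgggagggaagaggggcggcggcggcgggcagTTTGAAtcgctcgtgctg
Ube2c chr2:164769679-164769948, plus strand: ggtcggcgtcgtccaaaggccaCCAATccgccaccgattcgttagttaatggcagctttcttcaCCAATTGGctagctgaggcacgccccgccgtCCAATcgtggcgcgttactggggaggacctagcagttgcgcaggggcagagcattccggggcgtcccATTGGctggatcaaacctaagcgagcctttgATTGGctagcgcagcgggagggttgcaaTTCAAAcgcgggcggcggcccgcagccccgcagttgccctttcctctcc
Mcm5 chr8:75109259-75109528, plus strand: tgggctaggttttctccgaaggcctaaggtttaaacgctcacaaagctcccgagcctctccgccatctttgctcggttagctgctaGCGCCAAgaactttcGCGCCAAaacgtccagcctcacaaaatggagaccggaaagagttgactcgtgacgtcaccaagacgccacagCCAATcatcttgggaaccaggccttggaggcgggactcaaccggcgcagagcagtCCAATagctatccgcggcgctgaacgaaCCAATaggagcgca

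Every one of these 5 windows held CCAAT on one of the strands, and in Ube2c a CCAAT and its reverse ATTGG overlap. TTTGAA was found in the windows of Mki67, Top2a, Cenpf and Ube2c, and TTGGCGC in those of Mki67 and Mcm5. Over windows of 250 bases before to 50 after the start, TTTGAA was in 65.4% of those of the G2/M list, in 16.7% of those of the S list and in 17.9% of all 32851 windows. CCAAT was in 75.0%, 69.4% and 37.4%. TTCCCGC was in 44.4% of the S list, 1.92% of the G2/M list and 4.60% of all windows, and TTGGCGC in 22.2%, 13.5% and 2.45%. These are matches to letters, not measured binding, and 36 windows stood for the S list and 52 for the G2/M list.

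The cells were macrophages by genes that the rule did not use. Csf1r, the receptor for the growth factor CSF1, was read at 1280 CPM (UMIs of the gene per 1000000 UMIs of the same cells) in WT and 1338 in KO cycling cells, Adgre1 (F4/80) at 495 and 580, and Mertk, a receptor for dying cells, at 121 and 115. Ptprc, which codes for CD45, was at 343 and 336 CPM. C1qa (chr4:136895917-136898803, GRCm38), a complement gene the rule used, was at 4010 and 3690 CPM. No Ccr2 UMI was found in 90.9% of the WT and 97.0% of the KO cells. Their depth ran from 1764 to 133522 UMIs in WT and from 5628 to 112212 in KO. The cycling cells were deeper than the non-cycling CCR2-low macrophages, with a median of 31542.5 against 20194.5 UMIs in WT and 33923 against 23584 in KO.

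The word cycling held for part of them. Mki67 (ENSMUSG00000031004, chr7:135689784-135716361) codes for the Ki-67 coat of mitotic chromosomes and Top2a (ENSMUSG00000020914, chr11:98992943-99024189) for a topoisomerase that untangles them. Their sum had a median of 10 UMIs in WT (3 to 293) and 6 in KO (3 to 208). Exactly 3 UMIs, the least the rule allowed, were held by 42 WT cells (15.9%) and 27 KO cells (27.3%), while 52.7% and 34.3% held 10 or more. To check these ranges with other genes, the UMIs of 43 S phase and 53 G2/M genes, which include neither Mki67 nor Top2a, were summed per cell after each cell was thinned to 5000 UMIs. Non-cycling cells with no Mki67 or Top2a had a median of 7 list UMIs in both libraries. Cells with 3 to 5 had 12 in WT and 9 in KO, cells with 6 to 9 had 20 and 10, and cells with 10 or more had 75 and 70.5. At least 20 list UMIs were found in 93.3% and 97.1% of the cells with 10 or more, in 30.1% (20.5 to 41.2) and 14.6% (6.07 to 27.8) of those with 3 to 5, and in 3.14% (1.84 to 4.97) and 1.22% (0.252 to 3.52) of those with none. Most cells with 3 to 5 UMIs thus had fewer than 20 list UMIs, while the share past 20 was above that of the cells with none.

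Cenpf (ENSMUSG00000026605, chr1:189640606-189688086), a kinetochore gene of late G2 and mitosis outside the rule, was high in the cells with 10 or more. It was at 311 CPM in WT and 217 in KO cells with 10 or more Mki67 and Top2a UMIs, at 7.50 and 3.53 in cells with 3 to 5, and at 4.07 and 3.84 in cells with none, so the KO cells with 3 to 5 were not above those with none. Over all cycling cells a Cenpf UMI was found in 47.0% of WT and 33.3% of KO cells, against 6.03% and 5.41% of non-cycling cells. Just inside the limit, cells with 3 UMIs had 2223 CPM of both lists in WT and 2363 in KO, and just outside it, cells with 2 had 2497 and 1299. At the Ccr2 limit, 2 WT cycling cells had 4 UMIs and 2 had 5, while no KO cell had 4 or 5 and 2 had 6.

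**Figure D1:**
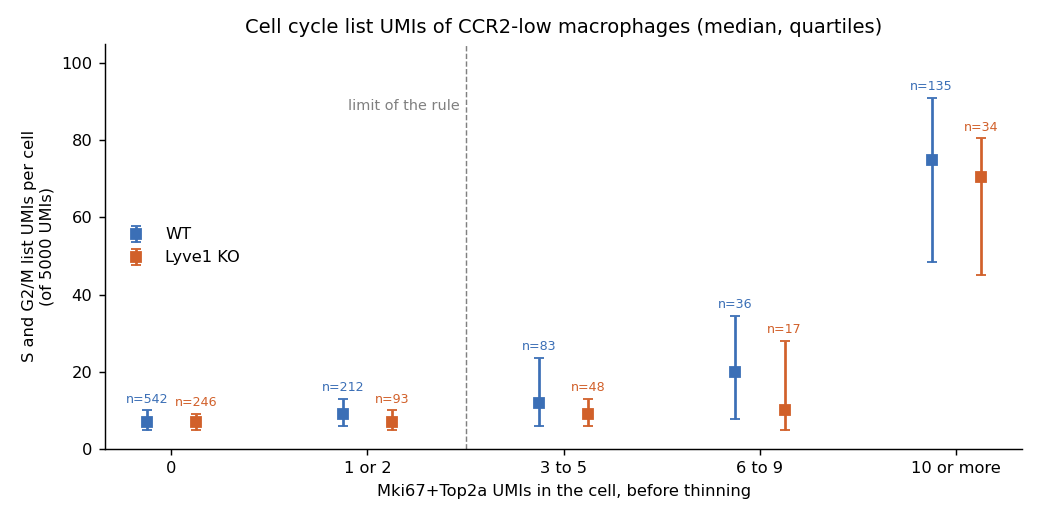
S and G2/M list UMIs per CCR2-low macrophage at 5000 UMIs (vertical axis) by the range of Mki67 plus Top2a UMIs (horizontal axis) in the WT and Lyve1 KO libraries, with squares for medians and bars for quartiles. Medians rise from 7 in both libraries in cells with none to 75 in WT and 70.5 in KO in cells with 10 or more, and the cells with 3 to 5 have medians of 12 and 9 with an upper quartile of 23.5 in WT against 10 in cells with none.

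How much of the CCR2-low population was cycling in each genotype depended on how strong a signal was asked for. By the rule, 264 of 1160 WT cells (22.8%, 20.4 to 25.3) and 99 of 450 KO cells (22.0%, 18.3 to 26.1) were cycling, a difference of -0.76 percentage points whose interval of -5.13 to 3.91 holds 0. With 2 or more UMIs the shares were 29.1% and 29.8%. With 6 or more UMIs the shares were 15.2% and 11.3%, a difference of -3.84 points (-7.24 to -0.04). With 10 or more UMIs, 12% of WT (10.2 to 14.0) and 7.56% of KO cells (5.29 to 10.4) counted, a difference of -4.43 points (-7.32 to -1.11). With the rule's limit of 3 applied at 5000 UMIs per cell, so that depth was equal, the shares were 11.7% of 1008 and 5.94% of 438 cells, a difference of -5.77 points (-8.59 to -2.57). This leaves out the shallower cells, by the rule 10 cycling and 142 non-cycling in WT and 0 and 12 in KO. By 20 or more list UMIs at 5000 UMIs, in place of Mki67 and Top2a, they were 20.5% (18.1 to 23.2) and 11.6% (8.79 to 15.0), a difference of -8.89 points (-12.6 to -4.79). The KO share was therefore lower beyond counting error under each of these 4 stricter or depth-matched definitions, and not by the rule itself or by the limit of 2. The definitions call overlapping sets of the same cells, so they are not independent of each other. Those of 10 or more UMIs and of 20 or more list UMIs were chosen after the data were seen.

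**Figure D2:**
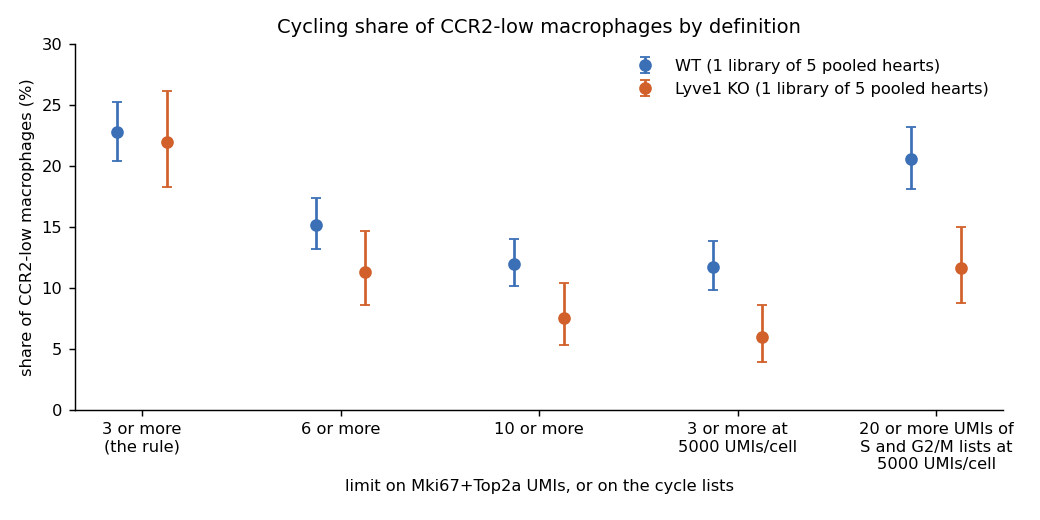
Share of CCR2-low macrophages counted as cycling (percent, vertical axis) in the WT and Lyve1 KO libraries under each definition, with 95% intervals for counting error as bars. By the rule the shares are 22.8% and 22.0%, and by 20 or more list UMIs they are 20.5% and 11.6%.

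Lymphoid cells and CCR2-high macrophages of the same libraries had lower KO shares as well. Of the lymphoid barcodes, chosen by lymphocyte markers and low C1q, 29.6% in WT and 25% in KO had 20 or more list UMIs at 5000 UMIs, a difference of -4.65 points (-9.02 to -0.351). By the rule's own limit of 3 UMIs they were at 21.9% and 17.1%. CCR2-high macrophages, which met the rule except that they held 5 or more Ccr2 UMIs, were at 20.5% (34 of 166) and 10.5% (12 of 114) by the rule, a difference of -9.96 points (-18.0 to -1.11), and at 14.7% and 7.02% by the list, a difference of -7.71 points whose interval of -14.8 to 0.046 holds 0. The small classes of Prg4 and of Cd207 or Clec4f macrophages went the other way by the rule, from 56.3% (9 of 16) to 70.4% (19 of 27) and from 16.4% (11 of 67) to 29.4% (5 of 17), with intervals of -13.8 to 41.0 and -6.33 to 37.7 points for the difference. The part of the library itself in the difference was not tested. As a share of all barcodes within the cell limits, cycling CCR2-low macrophages made up 7.81% of the WT and 3.58% of the KO library (-4.24 points, -5.38 to -3.09), beside a CCR2-low share of 34.3% and 16.3%.

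Mki67 and Top2a are themselves highest in G2 and mitosis, so the rule tilts the chosen cells towards those phases. A cell was called G2/M-leaning where its G2/M list UMIs outnumbered its S list UMIs at 5000 UMIs, a range rather than a type, and 10 WT cells under 5000 UMIs were left out. G2/M-leaning cells were 142 of 254 in WT (55.9%) and 60 of 99 in KO (60.6%), a difference of 4.70 points whose interval of -6.82 to 15.6 holds 0. Without thinning they were 61.7% and 64.6%. S-leaning cells were 38.6% and 36.4%. Non-cycling cells, which held few list UMIs, gave 51.2% and 59.6% G2/M-leaning, so the call carries information only where the list UMIs are many. Among cells with 10 or more Mki67 and Top2a UMIs it was 68.9% and 73.5%.

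Single genes are given by the call as a description, since most are in the lists that made it. Ccnb1, the cyclin that drives entry into mitosis, was at 6.10 CPM in S-leaning and 144 in G2/M-leaning WT cells, and at 2.57 and 61.9 in KO. Cdc20, which starts the destruction of cyclin at anaphase, was at 7.17 and 161 in WT and at 2.57 and 51.0 in KO. Cenpf, in the G2/M list, went from 9.29 to 344 in WT and from 4.50 to 153 in KO. Mcm5, a subunit of the replicative helicase and in the S list, went the other way, from 179 to 49.2 and from 129 to 55.4. Rrm2, a subunit of the reductase that makes deoxynucleotides and also in the S list, went from 87.6 to 64.5 in WT but from 39.9 to 81.1 in KO. The genes Folr2, Cd163, Cbr2 and F13a1 together were lower in G2/M-leaning cells, at 2311 against 3182 CPM in WT and 2536 against 3752 in KO. Olfml3, Fcrls and Gpr34 together were at 956 against 906 in WT and at 770 against 876 in KO.

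**Figure D3:**
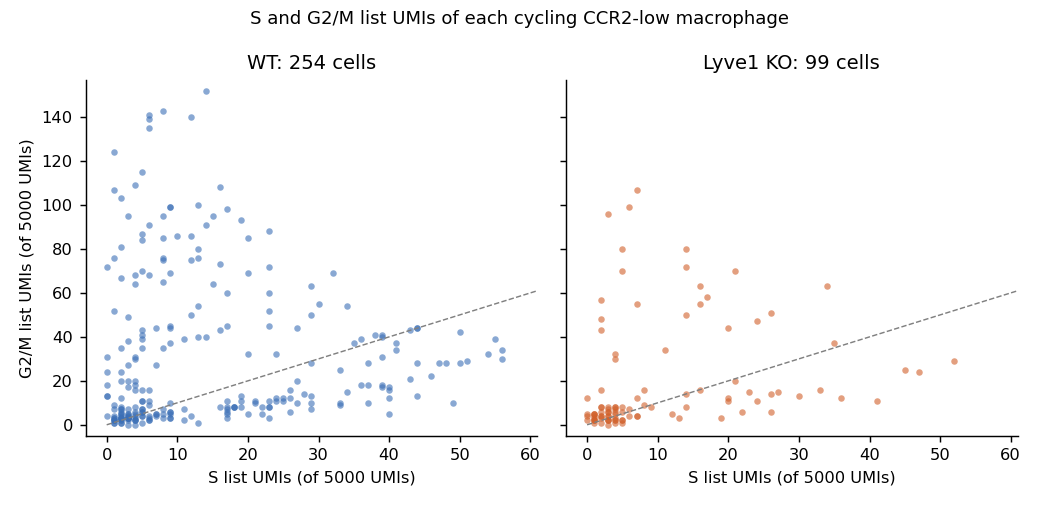
S list UMIs (horizontal axis) against G2/M list UMIs (vertical axis) per cycling CCR2-low macrophage at 5000 UMIs, 1 point per cell, for WT and Lyve1 KO. Cells above the dashed line of equal numbers are G2/M-leaning, 142 of 254 in WT and 60 of 99 in KO.

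Most cycling cells held UMIs of both resident sets, counted by any gene of each set. At 5000 UMIs, at least 1 UMI of Folr2, Cd163, Cbr2 or F13a1 (Folr2-type) and at least 1 of Olfml3, Fcrls or Gpr34 (Olfml3-type) were found together in 187 of 254 WT cells (73.6%, 67.7 to 78.9) and 74 of 99 KO cells (74.7%, 65.0 to 82.9), a difference of 1.13 points (-9.52 to 10.6). Without thinning the shares were 87.1% and 86.9%. With Folr2 and Olfml3 as the only genes they were far lower, as given under processing. Fcrls was read in 85.8% of WT and 77.8% of KO cells at 5000 UMIs, and F13a1 in 74.0% and 75.8%. Olfml3 itself was read in 17.7% and 22.2%. Folr2-type UMIs alone were found in 9.06% and 10.1%, Olfml3-type UMIs alone in 15.0% and 9.09% (-5.87 points, -12.4 to 2.38), and neither in 2.36% and 6.06%. In lymphoid barcodes, the background, both were found in 0.147% and 0.587%. Folr2-type UMIs alone were found in 5.89% and 4.99% of them, and Olfml3-type UMIs alone in 3.24% and 2.64%. Lyve1 was kept out of the call since it is the deleted gene. Once cells with 3 or more UMIs of the B, T and NK, endothelial or fibroblast list were left out, 69.9% of WT and 47.2% of KO cells held both (-22.7 points, -40.1 to -4.02), from 36 KO cells, and with Ighm left out of the B list 73.7% and 66.2% did. Non-cycling CCR2-low macrophages held both sets in 78.8% and 79.4% of cells, so the cycling cells were lower by 5.16 points in WT and 4.60 points in KO, within counting error in each (-11.5 to 0.737 and -14.8 to 4.23).

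The strongly cycling cells are given beside the cells with no Mki67 or Top2a UMI, without a test of the difference. With 10 or more Mki67 and Top2a UMIs, both sets were found in 66.7% of WT (58.0 to 74.5) and 67.6% of KO cells (49.5 to 82.6), against 78.0% (74.3 to 81.5) and 80.5% (75.0 to 85.2) of cells with none. They held Folr2-type UMIs with or without the other set in 74.8% and 76.5%, against 83.2% and 86.2% of cells with none, and Olfml3-type UMIs in 89.6% and 82.4%, against 92.6% and 90.7%. Turned round, no class of CCR2-low macrophage held the cycling to itself. In WT, 33.8% of the cells with Folr2-type UMIs alone (23 of 68), 27.3% of those with Olfml3-type UMIs alone (38 of 139) and 23.9% of those with both (187 of 781) were cycling. In KO the shares were 25.6% (10 of 39), 22.5% (9 of 40) and 21.6% (74 of 343). Of the cells with neither, 30% (6 of 20) were cycling in WT and 37.5% (6 of 16) in KO. WT cells with and without a Lyve1 UMI were cycling in 25.5% and 25%. The classes differ in depth, and the number of cells in the smaller ones is low.

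**Figure D4:**
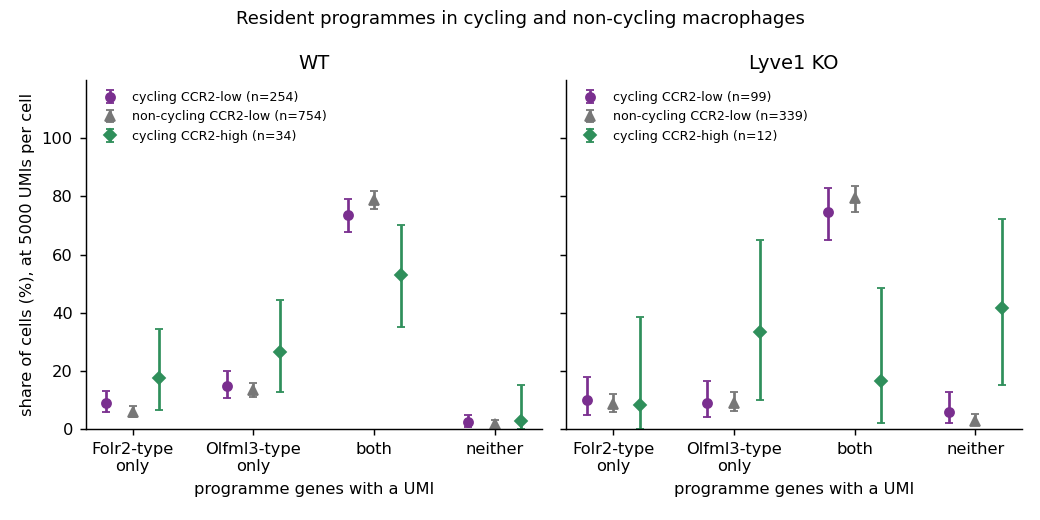
Share of cells (percent, vertical axis) with Folr2-type UMIs only, Olfml3-type UMIs only, both or neither at 5000 UMIs, for cycling and non-cycling CCR2-low macrophages and cycling CCR2-high macrophages of each library, with 95% intervals for counting error as bars. Both sets are found in 73.6% of WT and 74.7% of KO cycling CCR2-low cells, and in 52.9% and 16.7% of cycling CCR2-high cells.

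Cycling CCR2-high macrophages held both sets less often, in 18 of 34 WT cells (52.9%) and 2 of 12 KO cells (16.7%). The cycling CCR2-low cells were higher by 20.7 points in WT (4.05 to 37.7) and by 58.1 points in KO (28.4 to 72.2). Only Ccr2 separates these classes in the rule, but Ccr2 and the resident genes are read from the same cells, so this is a description. With 12 KO cells on the CCR2-high side, the KO values below rest on few cells.

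Gene by gene, most Folr2-type genes lay below their level in non-cycling cells and above that in cycling CCR2-high cells. Folr2 (ENSMUSG00000032725, chr7:101839988-101857194), the folate receptor beta gene, was at 436 CPM in WT and 505 in KO cycling cells, at 589 and 701 in non-cycling cells, and at 239 and 79.2 in cycling CCR2-high cells. Per cell at 5000 UMIs its median was 1 UMI in both libraries, with 55.1% of WT and 57.6% of KO cells at 1 or more. F13a1, the coagulation factor XIII A subunit, was at 1348 and 1543 CPM in cycling and 1855 and 2131 in non-cycling cells. Cd163, the scavenger receptor for haemoglobin bound to haptoglobin, was at 157 and 197, against 225 and 250 in non-cycling and 17.4 and 7.20 in cycling CCR2-high cells. Gas6, a bridge between dying cells and their receptors, was at 313 and 316, against 480 and 406 in non-cycling cells. Timd4, a receptor for phosphatidylserine, was at 127 and 148 CPM in cycling cells against 89.0 and 137 in non-cycling cells. With Ccl8 it was 1 of 2 of these genes that lay above 0 in both libraries. The share of cells with a Timd4 UMI at 5000 UMIs was slightly lower, however, at 19.3% and 23.2% against 22.1% and 24.5%.

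Of 12 tested Olfml3-type genes 10 lay below their level in non-cycling cells in both libraries. None passed 2-fold, and of all 8796 genes tested only 1 (0.0114%) was more than 2-fold lower. Fcrls (ENSMUSG00000015852, chr3:87250758-87263738), an Fc receptor-like gene, was at 755 CPM in WT and 665 in KO cycling cells, at 869 and 763 in non-cycling cells, and at 417 and 130 in cycling CCR2-high cells. At 5000 UMIs its median was 4 UMIs per cycling cell in WT and 3 in KO, and 85.8% and 77.8% of cells had at least 1. Cx3cr1, the fractalkine receptor, was at 651 and 527 CPM, against 740 and 665 in non-cycling cells. Gpr34, a receptor for lysophosphatidylserine, was at 110 and 90.4 against 154 and 136, and P2ry12, an ADP receptor, at 145 and 107 against 179 and 154. Tmem119 was at 44.4 and 28.7 CPM. Sall1, a transcription factor that defines microglia, had 0 UMIs in the cycling cells of both libraries, which allows up to 0.339 CPM in WT and 0.762 in KO.

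**Figure D5:**
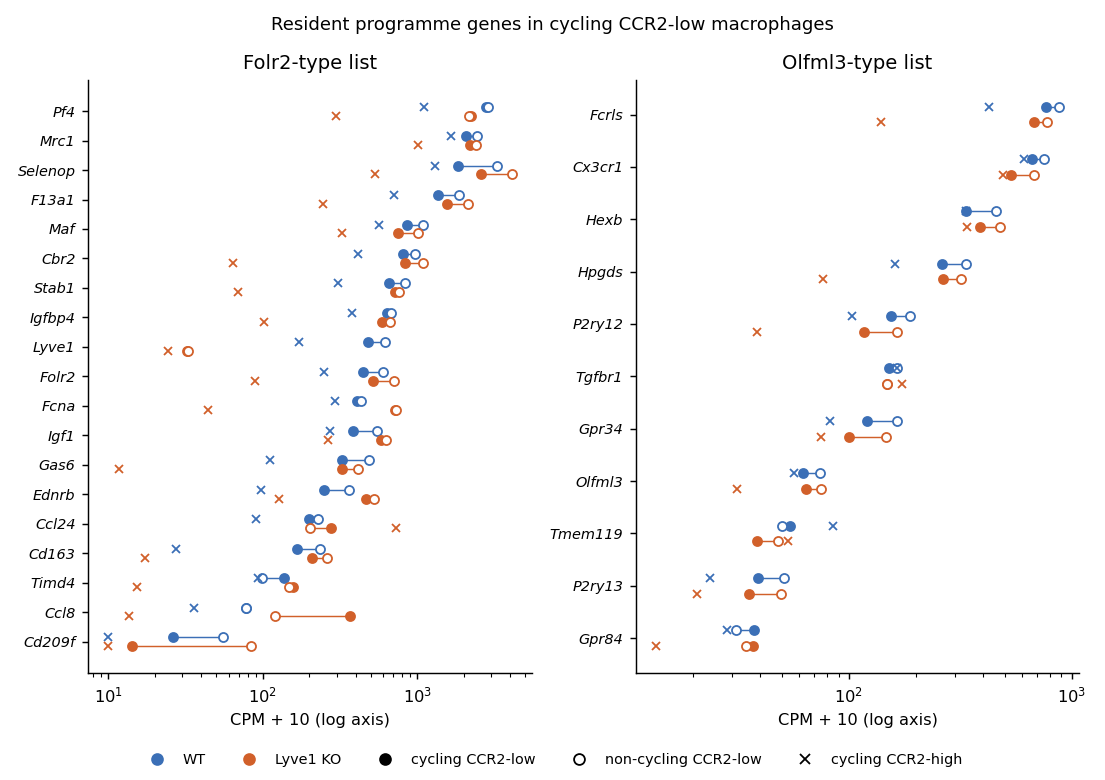
Levels of resident programme genes (CPM + 10, horizontal log axis) in cycling CCR2-low, non-cycling CCR2-low and cycling CCR2-high macrophages of the WT and Lyve1 KO libraries, 1 symbol per class and library, with lines joining cycling and non-cycling cells. Before the 10 is added, Folr2 sits at 436 and 505 CPM in the cycling CCR2-low cells and at 239 and 79.2 in the cycling CCR2-high cells.

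Against non-cycling CCR2-low macrophages, 197 of 8796 genes (2.24%) were more than 2-fold higher in both libraries, and 1 (0.0114%) was more than 2-fold lower. Ratios here and below are log2 ratios of CPM + 10, which understate the change of low genes, and a gene needed at least 100 UMIs. The rule used this contrast, so the count is a description with no test. Of the higher genes, 66 (33.5%) were in the S or G2/M list. Beside Mki67 and Top2a, at 4.81 and 4.86 in WT and 4.46 and 4.36 in KO, the highest were histone genes of S phase such as Hist1h2ab (4.87 and 4.54), Ube2c (4.30 and 3.19), which marks cyclins for destruction, Birc5 (4.06 and 3.60), the survivin of the mitotic spindle, the replication factor Pclaf (4.11 and 4.17) and the thymidine kinase Tk1 (3.45 and 3.39). All 35 tested S genes and all 47 tested G2/M genes lay above 0 in both libraries, with 26 and 40 past 2-fold. Of 14 genes of nucleotide synthesis, 6 were past 2-fold.

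Among the starters and brakes of the cycle, 1 gene of each list passed 2-fold, beside the 2.24% of all genes. Of 12 genes of G1 cyclins, their kinases and pocket proteins, 1 was higher, Rbl1 (1.29 in both libraries), a pocket protein that holds E2F factors. Ccnd1, cyclin D1, was at 246 CPM in WT and 180 in KO cycling cells against 230 and 133 in non-cycling cells. Of 11 inhibitors and quiescence genes, 1 was higher, Cdkn2c (1.96 and 1.45), while Cdkn1a (p21) was at 568 and 655 against 653 and 525. None of 18 apoptosis and survival genes and none of 13 efferocytosis genes passed 2-fold.

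Most genes of the resident and identity lists lay lower in cycling cells, 1 of them past 2-fold. Over all 8796 genes tested the median ratio was 0.006 in WT and 0.004 in KO. The median ratio was -0.35 in WT and -0.16 in KO over 19 Folr2-type genes, 15 of them below 0 in both libraries, and -0.27 and -0.30 over 12 Olfml3-type genes, 10 of them below 0. Over 12 genes of macrophage identity it was -0.16 and -0.20. Apoe, the lipid carrier, was at 10100 CPM in WT and 9549 in KO cycling cells against 15009 and 14912 in non-cycling cells, and Selenop, a selenium carrier, at 1825 and 2570 against 3290 and 4071. Of 17 growth receptor and transcription factor genes none passed 2-fold and 13 lay below 0 in both libraries, with Cebpa, a factor of myeloid differentiation, at -0.75 and -0.61, Klf2 at -0.83 and -0.62 and, above 0, Id3 at 0.41 and 0.99. The serous cavity list went the other way, with all 5 tested genes above 0 in both libraries and 1 of them, Alox15, past 2-fold in both, beside the 2.24% of all genes, and with medians of 1.0 and 1.08. Summed, that list stood at 1149 CPM in WT and 1089 in KO cycling cells against 237 and 467 in non-cycling cells, with Saa3, an acute phase gene, as its most abundant gene (7304 WT UMIs, 4026 of them in 1 cell). Of 6 tested monocyte genes 4 lay above 0 in both libraries, with medians of 0.54 in each. Among the lowest genes were also Jun (-0.74 and -0.86) and Egr1 (-0.66 and -0.96), immediate early transcription factors. The gene past 2-fold lower in both libraries was Cd209f, a lectin gene read in 4 WT and 1 KO cycling cells. The S and G2/M lists together stood at 9572 CPM in WT and 6290 in KO cycling cells, and at 1835 and 1501 in non-cycling cells.

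Against cycling CCR2-high macrophages, 52 of 6096 genes (0.853%) were more than 2-fold higher in both libraries and 24 (0.394%) lower, a contrast that the rule chose through Ccr2. The highest included Slc40a1, the iron exporter ferroportin (3.49 in WT and 3.82 in KO), Cd163 (2.61 and 3.59) and Gas6 (1.54 and 4.79). Of 17 Folr2-type genes, 16 lay above 0 in both libraries and 6 passed 2-fold, with medians of 0.94 in WT, below 2-fold, and 2.66 in KO. Of 11 Olfml3-type genes 8 lay above 0 and none passed. All 6 tested MHC class II genes, which present antigen to T cells, were lower, with medians of -3.82 and -6.41. Cd74, the invariant chain of MHC class II, was at 349 CPM in WT and 193 in KO cycling CCR2-low cells against 3956 and 8401 in cycling CCR2-high cells. The calcium-binding S100a6 was lower as well, by -2.0 and -1.94. The G2/M genes did not go one way, with 46 of 46 above 0 in WT (median 0.57) and 38 of 46 below 0 in KO (median -0.58).

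Between genotypes, the deleted gene was compared first. Lyve1 (ENSMUSG00000030787, chr7:110850607-110863239) was at 471 CPM in WT cycling cells (4170 UMIs in 125 cells) and at 22.1 in KO (87 UMIs in 34 cells), a log2 ratio of -3.91, and at 611 and 23.0 in non-cycling cells. At 5000 UMIs a Lyve1 UMI was found in 37.4% of WT and 6.06% of KO cycling cells, and in 0.147% of WT and 2.54% of KO lymphoid barcodes. Without thinning these were 47.3% and 34.3% of cycling cells and 1.07% and 11.2% of lymphoid barcodes. Which exons the deletion removes is not given in the sources used here, so the UMIs left in KO were not assigned to intact or cut transcripts.

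Apart from Lyve1 few genes differed. Of 9121 genes, 37 (0.406%) were more than 2-fold higher and 50 (0.548%) more than 2-fold lower in KO cycling cells, and 94.6% moved by less than 0.5, with a median of -0.07. Most genes of the resident sets stayed inside these limits. Of 19 Folr2-type genes, 1 was higher (Ccl8) and 1 lower (Lyve1), 14 lay above 0 and the median was 0.19. Of 11 Olfml3-type genes none passed 2-fold, 8 lay below 0 and the median was -0.14. Folr2 was at 436 and 505 CPM, F13a1 at 1348 and 1543, Cbr2, a carbonyl reductase, at 800 and 821, and Mrc1, the mannose receptor, at 2054 and 2187.

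By the share of cycling cells with a UMI at 5000 UMIs, the interval of the difference between genotypes held 0 for 30 of the 35 resident genes, lay below 0 for 4 (Lyve1, Cx3cr1, Tmem119 and Maf) and above 0 for 1 (Igf1), unadjusted for their number. Genes read in nearly all or almost none of the cells could hardly differ by this share. Pf4 was read in 96.5% of WT and 97.0% of KO cycling cells, while its median per cell was 14 and 10 UMIs. In non-cycling cells that median was 12 and 9. Cx3cr1, at 651 and 527 CPM, was read in 83.9% of WT and 69.7% of KO cycling cells at 5000 UMIs. The difference was -14.2 points (-24.6 to -4.56), beside 84.1% and 77.3% of non-cycling cells with a UMI. For Tmem119 the difference was -10.2 points (-17.0 to -1.70), and for Maf, a factor of macrophage differentiation, -8.01 points (-16.3 to -1.70). Igf1, the growth factor, was at 376 CPM in WT and 576 in KO cycling cells (0.60), beside 539 and 617 in non-cycling cells. At 5000 UMIs its median per cell was 1 UMI in WT and 2 in KO. The share of cycling cells with a UMI, 70.9% and 81.8%, differed by 11.0 points (0.762 to 19.6). In non-cycling cells that share was 77.6% in WT and 86.4% in KO. Ednrb, the endothelin receptor B, was at 240 and 457 (0.90), with a share difference of 10.6 points (-0.64 to 21.9). Fcna, ficolin A, was at 396 and 710 (0.83), with one of 8.28 points (-3.03 to 19.6), beside 421 and 713 in non-cycling cells. Ccl8, a chemokine, was at 68.4 and 358 CPM (2.23), but from 31 WT and 18 KO cells, with 625 of the 1411 KO UMIs in 1 cell, and it turned to -1.16 once cells with UMIs of another cell type's list were left out.

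Most division genes lay lower in KO without passing 2-fold. All 53 G2/M genes and 41 of 42 S genes lay below 0, with medians of -0.63 and -0.33, and 2 G2/M genes passed 2-fold, beside the 0.548% of all genes. Ube2c was at 288 CPM in WT and 118 in KO (-1.22), Cdc20 at 87.1 and 30.7 (-1.25), Birc5 at 208 and 123 and Tk1 at 155 and 117. Mki67 and Top2a, which chose the cells, were at 618 and 428 and at 450 and 294, and Cenpf was at 183 and 91.2 (-0.93). All 17 genes of nucleotide synthesis lay below 0 as well (median -0.29). In the cells chosen by 20 or more list UMIs instead, the log2 ratio of Mki67 was 0.01. Within the cells with 10 or more Mki67 and Top2a UMIs 4615 of all 7622 genes tested lay below 0 (median -0.06). There the S genes had a median of -0.09, with 25 of 42 below 0, and the G2/M genes -0.34, with 45 of 53 below 0 and none past 2-fold. There Mki67 was at 998 and 936 CPM, Mcm5 at 130 and 149, Ube2c at 492 and 273, Cenpf at 311 and 217, Folr2 at 308 and 313 and Fcrls at 782 and 663, from 139 WT and 34 KO cells. In these cells 3 of 18 tested Folr2-type genes were more than 2-fold higher in KO and 1, Lyve1, lower. Of 11 Olfml3-type genes 1 was lower, as were 4 of 6 MHC class II genes. Among the latter, H2-Aa had 244 UMIs in WT and 0 in KO, so it was tested through its WT UMIs alone. Over all 7622 genes tested, 66 were higher and 56 lower.

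Of 6 tested MHC class II genes 3 were more than 2-fold lower in KO cycling cells, beside the 0.548% of all genes, on UMIs that lay in few WT cells. H2-Aa had 414 UMIs in 23 of the 264 WT cells and 2 UMIs in KO, which gives a log2 ratio of -2.43 with 10 CPM added, and an interval of -9.58 to -4.66 for the log2 ratio of the CPM with nothing added. H2-Eb1 had 292 and 4 UMIs and H2-Ab1 256 and 2. Cd74 was at 349 and 193 CPM, but at 5000 UMIs a Cd74 UMI was found in 41.3% of WT and 51.5% of KO cells, and 3 or more UMIs of the list in 75% and 85.9% at full depth. The B cell gene Cd79a was lower as well, at 202 UMIs in 12 WT cells and 6 UMIs in KO, and its part in the result was not tested. The summed list was at 547 and 251 CPM in cycling and at 737 and 425 in non-cycling CCR2-low macrophages. H2-Aa was at 63.8 and 11.6 CPM in the non-cycling cells and at 951 and 929 in lymphoid barcodes. At 5000 UMIs, however, 2.92% of WT and 2.95% of KO non-cycling cells had an H2-Aa UMI. The highest count in such a cell was 86 UMIs in WT and 7 in KO.

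Other genes past 2-fold went the same way in cells of other kinds or rested on few cells. Dynlt1b, a dynein light chain gene with near copies in the genome, had 1123 UMIs in WT and 0 in KO cycling cells, at least 167-fold lower against 3 counts over the KO cells. It had 2510 and 3 UMIs in non-cycling cells and 939 and 1 in lymphoid barcodes. G530011O06Rik had 564 and 2 UMIs. Mid1, a ubiquitin ligase gene of the X chromosome, was at 49.7 and 4.32 CPM in cycling, 50.6 and 4.41 in non-cycling and 17.3 and 4.16 in lymphoid cells. S100a8, a neutrophil gene, had 1300 of its 1342 WT UMIs in 1 cell. On the higher side, Il31ra, a cytokine receptor subunit, was at 37.1 and 112 CPM from 125 and 60 cells and at 39.6 and 109 in non-cycling cells. Il6 (1.84) came from 14 and 15 cells.

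Lists of other lineages were also compared. Of 7 genes of serous cavity macrophages, 4 were higher in KO (Serpinb2, Selp, Icam2 and F5), beside the 0.406% of all genes, with a list median of 1.16. The summed list was at 1149 and 1089 CPM, and many of its WT UMIs were Saa3 UMIs of a single cell. At full depth, 3 or more list UMIs were held by 12.9% of WT and 22.2% of KO cells. The UMIs of these genes lay in few cells, such as 774 Serpinb2 UMIs in 8 KO cells and 140 in 4 WT cells. At least 5 UMIs of that list at 5000 UMIs were held by 13 of 254 WT (5.12%) and 10 of 99 KO cycling cells (10.1%), a difference of 4.98 points whose interval of -0.70 to 12.8 holds 0, and by 1.99% and 3.54% of non-cycling cells. Of 9 monocyte genes 1 was higher, F10, with a list median of 0.67 and a summed level of 1151 CPM in WT and 1662 in KO, of which Fn1, fibronectin, made up 560 and 970. None of 12 lipid, 12 macrophage identity, 14 G1, 11 inhibitor, 17 growth receptor and transcription factor, 18 apoptosis or 13 efferocytosis genes passed 2-fold, with a median of -0.05 for macrophage identity and -0.03 for apoptosis.

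UMIs of other cell types were present and differed between the libraries. The B cell list summed to 220 CPM in WT and 151 in KO cycling cells, against 3494 and 3514 in lymphoid barcodes, and most of it was Ighm, with 1124 and 475 UMIs. Cd79a had 202 UMIs in 12 WT cells and 6 in 6 KO cells. At least 3 B list UMIs were held by 54.5% and 57.6% of cycling and 46.0% and 51.0% of non-cycling cells. The T and NK list was at 63.5 and 0.254 CPM, the neutrophil list at 385 and 45.7 with S100a9 as its most abundant WT gene (1649 UMIs), the erythroid list at 25.3 and 4.83, and the cardiomyocyte list at 83.9 and 151. The endothelial list was at 26.6 and 23.6 CPM, the fibroblast list at 15.0 and 20.1, the dendritic cell list at 11.6 and 5.08 and the mast cell list at 0.904 and 0.762. Their part in the gene results was not tested beyond leaving such cells out. Both Xist and Y-linked UMIs were read in 9 of 264 WT cells (3.41%) and 0 of 99 KO cells, which allows a share of up to 3.03% by 3 counts and 3.66% by the exact interval. Xist UMIs alone were read in 30.3% of WT and 42.4% of KO cells (12.1 points, 1.19 to 23.3). Y-linked UMIs alone were read in 59.5% and 53.5% (-5.93 points, -17.3 to 5.32). The part of this sex mix in the gene results was not tested.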

How the data were processed

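The authors deposited raw UMI counts per gene and cell barcode for 2 libraries, made with Cell Ranger 8.0.1 on mm10, per the labels. The reporting summary of the study names another Cell Ranger version. The counts hold 32285 genes, and 9 barcodes occurred in both libraries, none of them a cycling CCR2-low macrophage. Cells were chosen by the rule given at the start, on raw UMIs. The assignment of cells to hearts was not used here. No doublet caller was run, so doublets remain, and cells with 3 or more UMIs of another cell type's list, or in the top 5% by UMIs, were left out as alternatives.

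Levels are summed UMIs per 1000000 UMIs of the same cells (CPM). Genes needed 100 UMIs, and a log2 ratio of CPM + 10 over 1 in size was the fixed rule of size. For shares across depths each cell was thinned to 5000 UMIs with a fixed seed. Intervals at 95% were Clopper-Pearson for a share, Newcombe for a difference and exact Poisson for counts. With 1 library per genotype, no p-value was computed.

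Named genes were those of the rule, Cenpf, Lyve1, the resident lists, up to 4 abundant or most changed genes of each other list, and the genes with the highest and lowest ratios that had a UMI in at least 20 cells. Some genes that this rule names are not reported here. The members and lists were chosen with earlier results of these data known. Promoter words were counted in RefSeq windows of GRCm38.p6. The scripts were tested on simulated data and ran under Python 3.11.15 (tables in pandas 2.3.3, counts in numpy 2.4.6, intervals in scipy 1.17.1, plots in matplotlib 3.10.9). Alternatives covered the limits of the rule, depth, the programme genes, the filter on low counts and the added CPM, and 4 more were chosen after seeing the data: 10 or more Mki67 and Top2a UMIs, 20 or more list UMIs, Ighm left out of the B list, and cells with cavity list UMIs left out.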

Additional observations from a re-analysis of the deposited data

Results flagged for a closer look

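The cycling share of CCR2-low macrophages differed in opposite directions between genotypes in cells with Xist UMIs alone and in cells with Y-linked UMIs alone. Among Xist cells it was 28.2% in WT and 23.1% in KO, and among Y-linked cells 21.6% and 22.9%, so that the KO minus WT difference was 6.44 points lower in Xist cells (-6.44). The interval of the KO minus WT difference held 0 in both, at -5.09 points (-12.9 to 3.17) in Xist cells and 1.35 points (-4.51 to 7.84) in Y-linked cells. With 1 library per genotype the difference between them was not tested.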

How the results depend on the processing

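No paired analysis was possible because each genotype had 1 library, and no library could be left out. Over the values that answer a comparison, 81 stayed within the set margin and 19 moved. The KO minus WT difference in cycling share moved from -0.76 to -5.77 points with the limit of 3 at 5000 UMIs, to -7.72 with 2 or more Mki67 and Top2a UMIs per 10000 UMIs and to -8.89 by the lists. The share holding both programmes, 73.6% in WT and 74.7% in KO, became 66.7% in WT cells with 10 or more UMIs, 87.1% and 86.9% without thinning, 7.09% and 11.1% with Folr2 and Olfml3 as the only genes, 61.4% and 59.6% when 2 UMIs of each were asked for, and 47.2% in KO once cells with UMIs of another cell type's list were left out, where the difference was -22.7 points (-40.1 to -4.02). With Ighm left out of the B list that step gave 73.7% and 66.2%. The 87 genes past 2-fold between genotypes became 160 without cells with other lists, 41 without the top 5% by UMIs, 201 with 1 CPM added and 48 at 300 UMIs. The 198 between cycling and non-cycling cells became 87 at 300 UMIs, and the 76 against CCR2-high cells became 134 with 1 CPM added and 38 at 300 UMIs. Of single genes and lists, 375 values stayed, 50 moved and 2 past 2-fold changed sign, Ccl8 to -1.16 without cells with other lists and Il6 to -0.325 without the top 5% by UMIs. Over the alternatives Lyve1 ranged from -4.40 to -2.99, Ube2c from -1.83 to -0.72, Cenpf from -1.25 to -0.42, Top2a from -0.90 to -0.03 and Mki67 from -0.81 to 0.01, which crosses 0. The number of cells limits the KO values, with 99 cycling CCR2-low and 12 cycling CCR2-high cells.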
